A study of Mus musculus with 8 samples.

Results

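The genes of the NMDA receptor subunits (Grin1, Grin2a, Grin2b, Grin2c, Grin2d, Grin3a and Grin3b) were followed through the cell types of the mouse hippocampus at postnatal day 21 (P21). They were chosen by symbol, and all 7 were found among the 32285 genes of the gene expression (GEX) tables. Hippocampal nuclei of C57BL/6J pups had been profiled by single-nucleus multiome, an assay that reads nuclear RNA and open chromatin (ATAC) of the same nucleus. Adult dams (8 weeks old by the labels) were given folic acid (FA) at 2 mg/kg (MF, the control diet) or 20 mg/kg (HF, the excess diet), from 2 weeks before mating through pregnancy and lactation. Each diet had 2 libraries, named MF1, MF2, HF1 and HF2 here by replicate number, and all animals were wild-type. The study's methods state that the pups were male and do not give the number of pups or litters behind a library, so p-values below measure only the spread between these libraries.

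NMDA receptors are glutamate-gated cation channels built from obligatory GluN1 subunits (Grin1) and GluN2 (Grin2a to Grin2d) or GluN3 (Grin3a, Grin3b) partners. GluN1 and GluN3 bind glycine or D-serine, whereas GluN2 subunits bind glutamate and set how long the channel stays open. In the forebrain GluN2B dominates early receptors and GluN2A joins as synapses mature, and receptors with GluN3A pass less calcium.

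Of 14297 deposited nuclei, 11518 passed the filters, 2249 to 3473 per library, with median depths of 6117 to 7053 UMIs per nucleus. Nuclei were clustered on RNA without the 7 subunit genes, and clusters were named from marker genes, so every name below means "like" that type. The named types were excitatory neurons (EXC, 5418 nuclei), inhibitory neurons (INH, 521), astrocytes (AST, 1452), oligodendrocyte progenitors (OPC, 555), their differentiating Bmp4 and Enpp6 stage (COP, 362), oligodendrocytes (ODC, 653), microglia (MG, 710), vascular and leptomeningeal cells (VLM, 186) and Cajal-Retzius cells (CR, 135). Within EXC, nuclei were split into CA1 (1190), CA3 (488), Nxph3-Sntb1 neurons (EXC-Nxph3, 745) and mature (DG-M, 1797), transitional (DG-T, 152) and immature (DG-i, 818) granule neurons of the dentate gyrus. INH held Sst neurons (118), Lhx6 neurons (125) and Adarb2 neurons (208). Lhx6 itself averaged 39.1 CPM (UMI counts-per-million) in Lhx6 neurons and 57.2 CPM in Sst neurons, and Sst 206 and 2053 CPM. The name Lhx6 thus marks no higher level of that gene than in Sst neurons. Another 1437 nuclei fell into clusters with a median doublet score over 0.05, and 89 into a cluster led by Top2a and Mki67 that stayed unnamed. AST included 160 nuclei led by Adgrv1 and Tnc with no AST marker in their first 10 genes. Library pairs shared 13 to 27 cell barcodes.

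The subunit genes differed widely in depth. All kept nuclei held 164879 UMIs of Grin2a, 151725 of Grin2b, 25130 of Grin1, 8850 of Grin3a, 1207 of Grin2c, 956 of Grin2d and 36 of Grin3b. A UMI was seen in 72.3% of nuclei for Grin2b, 59.4% for Grin2a and 56.5% for Grin1, against 0.313% for Grin3b. Gene length differs as widely, and nuclear RNA is read over introns as well as exons. In mm10 coordinates, Grin2a spans 428 kb (chr16:9567898-9995560, minus strand) and Grin2b 460 kb (chr6:135713233-136173511, minus), whereas Grin1 spans 28.0 kb (chr2:25291181-25319187, minus). Grin3a spans 184 kb (chr4:49661611-49845744, minus), Grin2d 46.5 kb (chr7:45831883-45878378, minus), Grin2c 18.1 kb (chr11:115249169-115267243, minus) and Grin3b 6.48 kb (chr10:79970715-79977190, plus). In EXC, the level per kb of gene span was 10.9 ± 0.656 CPM (UMI counts-per-million of the library and cell type) for Grin1, 4.81 ± 0.596 for Grin2a and 3.97 ± 0.222 for Grin2b (SD, n = 4 libraries). Per kb of exon the order turned, with 31.5 ± 1.89 for Grin1, 115 ± 14.2 for Grin2a and 73.6 ± 4.11 for Grin2b. Subunits are therefore compared between cell types within 1 gene, on the CPM scale, unless a length scale is named.

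**Figure D1:**
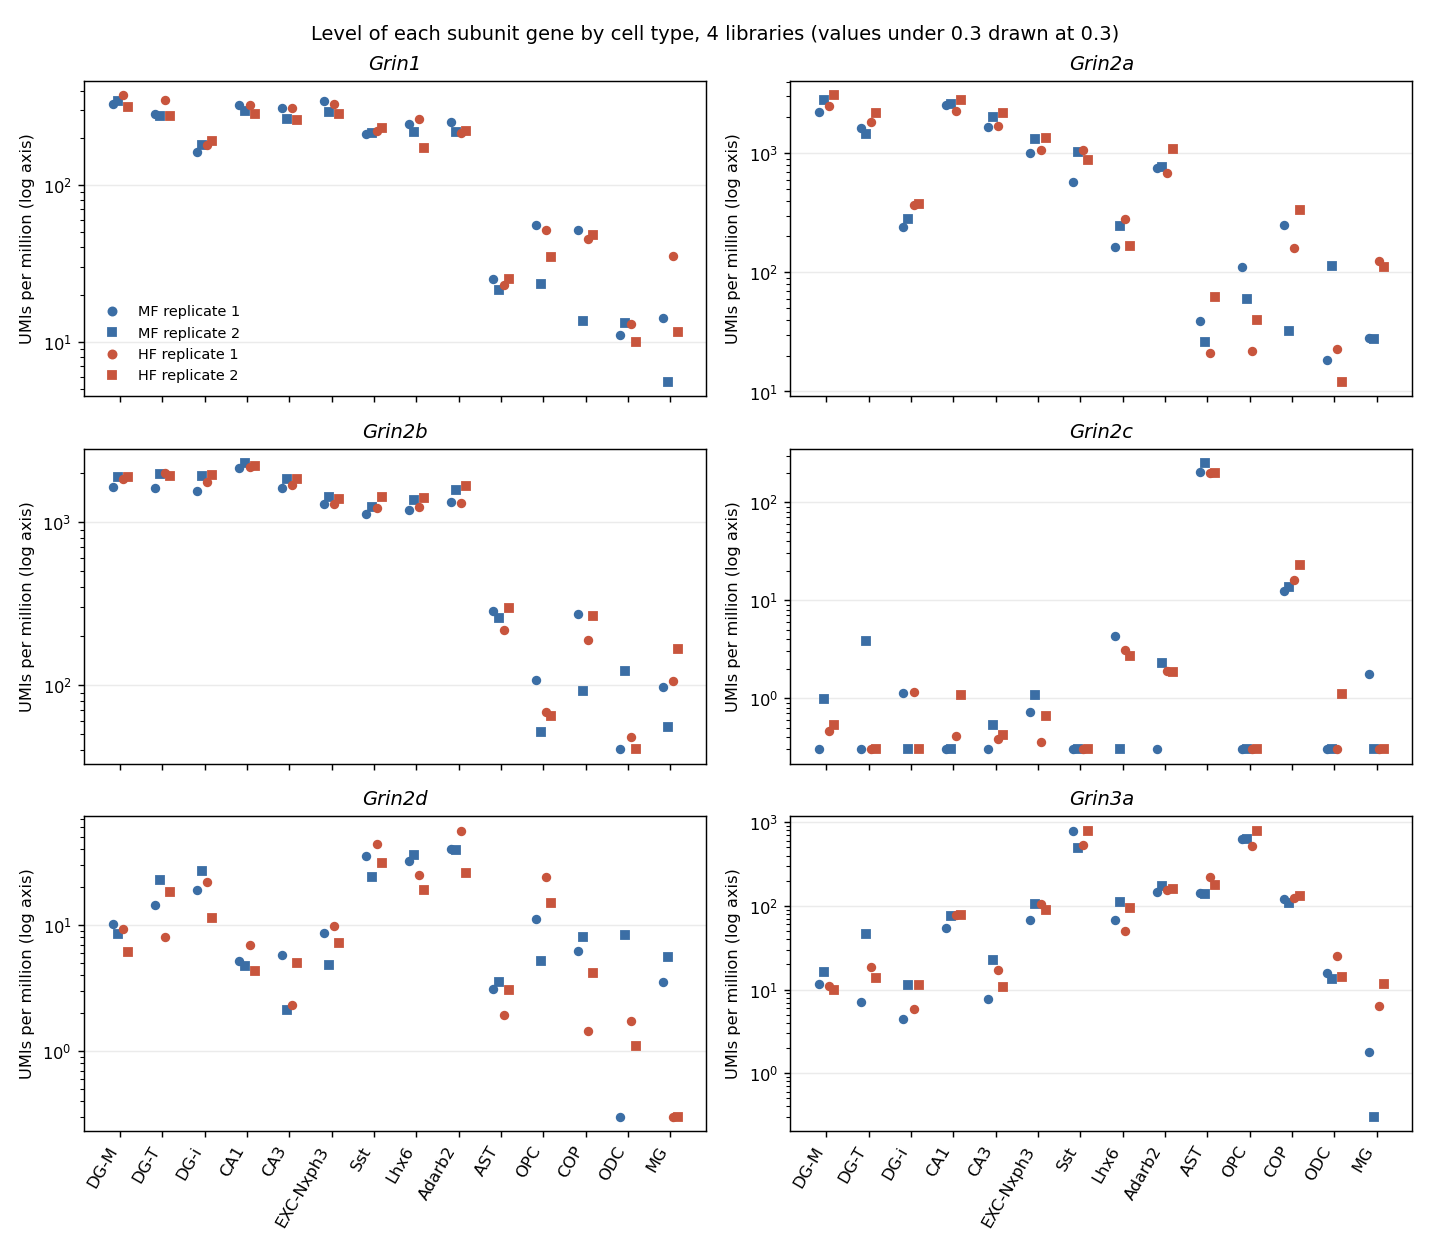
Level of 6 subunit genes in UMIs-per-million (log axis) in 14 cell types, with 1 point for each of the 4 libraries (blue, MF; red, HF). Neurons lie above glia for Grin1 and Grin2b, and for Grin2a except that COP (mean 193) overlap Lhx6 neurons and DG-i. AST stand apart for Grin2c (mean 212) and Sst neurons and OPC for Grin3a (means 653 and 644).

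Grin1, which encodes the subunit every NMDA receptor needs, was read in every neuron type and varied little among mature neurons. Its level was 328, 341, 373 and 316 CPM in DG-M (libraries always in the order MF1, MF2, HF1, HF2) and 163, 180, 179 and 192 CPM in DG-i. DG-M, EXC-Nxph3 (312 ± 29.2), CA1 (306 ± 19.4), DG-T (296 ± 35.3) and CA3 (285 ± 26.6 CPM) overlapped their neighbours in rank. Adarb2, Lhx6 and Sst neurons had 226 ± 17.6, 224 ± 40.0 and 220 ± 9.61 CPM. All Adarb2 and Sst libraries lay below those of CA3, while 1 Lhx6 library (HF1, 264 CPM) exceeded CA3 in MF2 and HF2 (263 and 261 CPM). A gap without overlapping libraries lay between DG-i (178 ± 12.0) and OPC (41.4 ± 15.2 CPM), and ODC (11.8 ± 1.61) and MG (16.6 ± 12.9 CPM) were lowest, with overlapping libraries.

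Grin2a, the GluN2A gene, varied widely among neurons. Its level in DG-M was 2214, 2805, 2470 and 3061 CPM, and in CA1 2520, 2571, 2247 and 2790 CPM, so that these 2 types overlapped. CA3 followed at 1884 ± 250, DG-T at 1777 ± 308 and EXC-Nxph3 at 1186 ± 177 CPM. Sst (886 ± 225) and Adarb2 neurons (825 ± 176 CPM) overlapped, and far below them came DG-i at 241, 279, 366 and 375 CPM and Lhx6 neurons at 165, 247, 283 and 167 CPM. Libraries MF2 and HF2 were higher than MF1 and HF1 in DG-M, CA1, CA3 and EXC-Nxph3, and in EXC as a whole. For Grin2b (below) the same held in EXC, INH and each of their named subtypes except DG-T.

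Grin2b, the GluN2B gene, was by contrast nearly level across the subtypes of EXC and INH. CA1 led at 2136, 2304, 2180 and 2205 CPM, above all libraries of the next type, DG-T (1875 ± 174). DG-M (1813 ± 115), DG-i (1796 ± 179) and CA3 (1743 ± 102 CPM) overlapped in rank, followed by Adarb2 (1473 ± 181), EXC-Nxph3 (1346 ± 64.5), Lhx6 (1299 ± 106) and Sst neurons (1248 ± 128 CPM). The means thus ran from 1248 to 2206 CPM, and those of Grin2a over the same types from 215 to 2638 CPM. The CR cluster, outside this range, had 724 ± 234 CPM of Grin2b, with all libraries below those of Sst neurons.

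Immature granule neurons thus carried Grin2b without much Grin2a. These neurons are born in the dentate gyrus after birth and pass through a doublecortin (Dcx) stage before they mature. Within each library, Grin2a was 6.76 to 10.1 times higher in DG-M than in DG-i (mean 8.54 ± 1.42), and DG-T lay between, 5.71 ± 0.772 times above DG-i and 1.51 ± 0.277 times below DG-M. DG-T rested on 3 marker genes and 152 nuclei, and it held 0 nuclei at the higher clustering resolution and with the Grin genes among the variable genes. Grin1 was 1.91 ± 0.193 times higher in DG-M than in DG-i. On the TMM-normalized log2 scale, DG-i minus DG-M was -3.29 ± 0.26 for Grin2a, -1.14 ± 0.11 for Grin1 and -0.23 ± 0.03 for Grin2b (SD over 4 libraries). Grin2d differed by +0.89 ± 0.32 and Grin3a by -0.78 ± 0.52, the latter on 21 UMIs in DG-i and at only -0.10 in HF2. A rule of a mean difference of at least 1.5-fold with all 4 libraries on 1 side was met by 4 of the 5 members tested, against 35.9% of 11395 genes. Because both stages are clusters of the same RNA, these differences are descriptions and carry no test. DG-i nuclei were also shallower, with a median of 3063 UMIs against 7721 in DG-M.

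**Figure D2:**
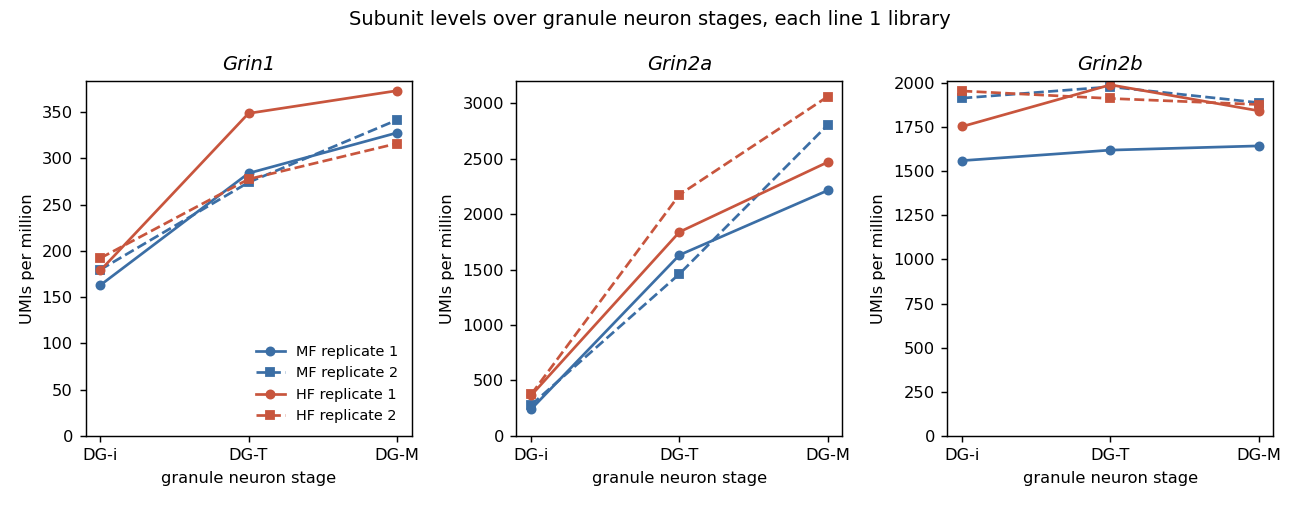
Grin1, Grin2a and Grin2b in UMIs-per-million at the immature (DG-i), transitional (DG-T) and mature (DG-M) granule stage, each line 1 library. In all 4 libraries Grin2a is higher in DG-M (over 2200) than in DG-i (241 to 375), while Grin2b lies between 1560 and 1990.

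The same contrast was seen per nucleus when depth was made equal. After thinning to 1000 UMIs, 21.1 ± 2.79% of DG-i nuclei held a Grin2a UMI, against 91.1 ± 2.05% of DG-M nuclei, while 80.3 ± 4.66% and 83.6 ± 3.09% held a Grin2b UMI. Without thinning the Grin2a shares were 43.5 and 99.9%. MG, which should lack the gene, gave 1.99 ± 1.41% for Grin2a and 6.38 ± 0.735% for Grin2b, so the DG-i shares lay above that background. Both genes were read in 17.5 ± 4.09% of DG-i nuclei, Grin2b alone in 62.8 ± 1.96% and Grin2a alone in 3.64 ± 1.80%. In DG-M both were read in 76.3 ± 4.49%, and Grin2b alone in 7.27 ± 1.68%.

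The balance of the pair was summarised as Grin2a UMIs over the sum of Grin2a and Grin2b UMIs, which does not depend on library scaling. This share was 57.4, 59.8, 57.3 and 62.0% in DG-M, 53.4 ± 2.16% in CA1, 51.8 ± 1.94% in CA3, 48.5 ± 4.53% in DG-T and 46.7 ± 2.67% in EXC-Nxph3. In DG-i it was 13.4, 12.7, 17.3 and 16.1%. Lhx6 neurons sat in the same low range at 12.2, 15.3, 18.6 and 10.6%. Sst neurons of the same medial lineage were at 33.9, 45.1, 46.9 and 38.3% and Adarb2 neurons at 35.7 ± 2.77%, and no library of either fell in the range of Lhx6 neurons.

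**Figure D3:**
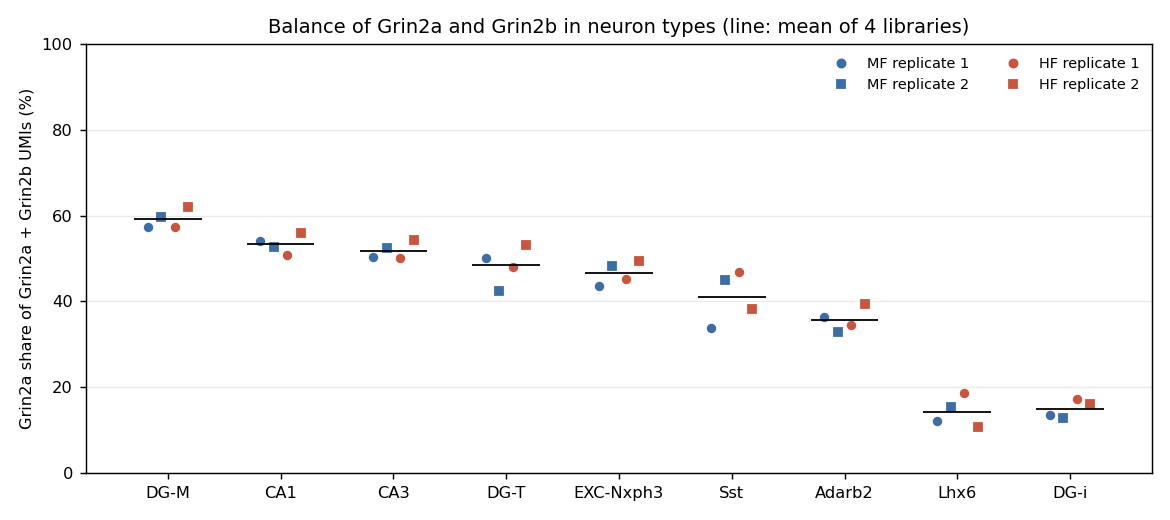
Grin2a share of the summed Grin2a and Grin2b UMIs (%) in 9 neuron types, with 1 point per library and a line at the mean of the 4 libraries. DG-i and Lhx6 neurons lie between 10.6 and 18.6%, and every other type lies above 32%.

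Interneuron types also differed from each other. Grin2a was 4.17 ± 0.793 times higher in Sst than in Lhx6 neurons (3.47 to 5.29 over the libraries), and after thinning a Grin2a UMI was found in 44.8 ± 7.22% of Sst and 15.5 ± 5.32% of Lhx6 nuclei, while Grin2b was found in 71.5 ± 12.3% and 78.4 ± 9.59%. Grin3a, whose GluN3A subunit lowers calcium entry, was 8.84 ± 3.26 times higher in Sst than in Lhx6 neurons. INH as a whole differed from EXC by -1.23 ± 0.20 for Grin2a, +2.20 ± 0.15 for Grin2d and +2.56 ± 0.33 for Grin3a (TMM log2 difference). These 3 of 5 members met the 1.5-fold rule, as did 28.5% of 14411 genes (15.1% lower and 13.3% higher). The Sst and Lhx6 groups held 24 to 37 nuclei per library.

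Grin2d, which encodes the slowly closing GluN2D subunit, was low everywhere and highest in interneurons. It had 40.1, 39.2, 56.1 and 25.9 CPM in Adarb2 neurons, 33.5 ± 8.22 in Sst and 28.1 ± 7.73 CPM in Lhx6 neurons, and all 3 overlapped. INH exceeded EXC 4.81 ± 0.523 times. Among granule neurons it ran against Grin2a, with 19.1, 26.7, 22.1 and 11.3 CPM in DG-i and 10.2, 8.57, 9.37 and 6.06 CPM in DG-M. The DG-i value rested on 56 UMIs, and the lowest DG-i library, HF2, lay close to the highest DG-M library, MF1.

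Grin3a was highest in Sst neurons and in OPC, the dividing cells that receive synapses from neurons. Its level was 795, 495, 532 and 789 CPM in Sst neurons and 636, 640, 520 and 779 CPM in OPC, 2 types that overlapped fully. In OPC, Grin1 (41.4), Grin2a (58.2, or 29.4 without nuclei over a doublet score of 0.05) and Grin2b (73.0 CPM) were all at glial levels. Per kb of exon, OPC had 52.4 ± 8.65 CPM of Grin3a and 4.27 ± 1.56 CPM of Grin1. Per kb of gene span the values lay closer, at 3.49 ± 0.577 and 1.48 ± 0.542 CPM. The Grin3a level in OPC exceeded that in COP (121 ± 9.82 CPM) 5.32 ± 0.839 times, and ODC had 17.2 ± 5.47 CPM (5.17 ± 3.46 without nuclei over the doublet score). After thinning, 44.9 ± 6.66% of OPC, 10.7 ± 1.79% of COP and 0.733 ± 0.590% of ODC nuclei held a Grin3a UMI, against 0.167 ± 0.333% of MG. AST (170 ± 38.1) and Adarb2 neurons (157 ± 10.7 CPM) came next. Among excitatory neurons Grin3a was highest in EXC-Nxph3 (67.0, 105, 105 and 90.0 CPM), which overlapped CA1 (54.7, 76.2, 77.0 and 77.1 CPM). DG-M had 11.7, 16.1, 10.97 and 10.0 CPM, and CA1 exceeded it 6.03 ± 1.57 times. It was also the single member of 5 to meet the 1.5-fold rule between CA1 and DG-M, at +2.62 ± 0.36 on the TMM log2 scale, where 28.4% of 12821 genes met it and 15.1% were higher in CA1.

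Grin2c, the GluN2C gene, was read mainly in astrocytes. AST had 202, 252, 197 and 199 CPM, COP followed at 16.2 ± 4.73 CPM, and every other type averaged under 3 CPM. Without nuclei over the doublet score, COP had 3.02, 0, 0 and 3.77 CPM and AST 213 ± 26.0 CPM. AST held 846 of the 1207 Grin2c UMIs. No Grin2c UMI was found in OPC or Sst nuclei. After thinning, 18.9 ± 2.35% of AST nuclei held a Grin2c UMI, against 0.0353 ± 0.0409% of EXC and 0.0969 ± 0.194% of MG nuclei (38.95, 0.553 and 0.0954% without thinning). Per kb of exon, Grin2c (42.2 ± 5.24 CPM) was the highest of the 7 genes in AST, above Grin3a (13.9 ± 3.11), Grin2b (10.6 ± 1.38), Grin1 (2.44 ± 0.190) and Grin2a (2.08 ± 1.03 CPM). Per kb of gene span Grin2c (11.8 ± 1.46 CPM) led as well, but Grin1 (0.845 ± 0.0658) lay above Grin2b (0.574 ± 0.0746 CPM).

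The sequence just upstream of the Grin2c start is shown because the chromatin there was open in AST (below). The 250 bases before the RefSeq start at chr11:115267243, read on the minus strand from chr11:115267244-115267493 (GRCm38.p6, 68.8% G or C), are printed with each GC box (GGGCGG, searched on both strands) in capitals. There are 3 copies, of which 2 share a base, and 32.7% of 32851 mouse promoters of this length hold at least 1. The upstream 250 bases of Grin1 (58.8% G or C) and Grin2d (54.4%) hold none.
Grin2c upstream: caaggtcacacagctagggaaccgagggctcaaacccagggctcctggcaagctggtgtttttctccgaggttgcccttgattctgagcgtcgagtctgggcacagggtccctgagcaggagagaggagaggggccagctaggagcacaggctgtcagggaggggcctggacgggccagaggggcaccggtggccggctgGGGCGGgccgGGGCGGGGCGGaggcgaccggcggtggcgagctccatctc

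Grin2b was also read in glia, at its highest in AST. AST had 283, 258, 219 and 297 CPM, COP 205 ± 84.4, OPC 73.0 ± 24.2, ODC 62.8 ± 39.9 and MG 106 ± 45.4 CPM. Without nuclei over the doublet score, AST had 260 ± 29.8, COP 57.3 ± 27.0 and MG 60.5 ± 16.2 CPM. The excitatory marker Slc17a7 stood at 41.9 CPM in AST, 40.2 in OPC, 30.9 in ODC and 32.7 in MG, against 257 CPM in EXC. In AST it was 84.5, 27.2, 30.9 and 25.2 CPM. The neuronal gene Snap25 averaged 203 CPM in AST and 883 CPM in EXC, and Syt1 126 and 2997 CPM. A Grin2b UMI was found after thinning in 19.7 ± 0.722% of AST nuclei, against 7.18 ± 4.29% in COP and 5.43 to 6.38% in OPC, ODC and MG. Grin2a in AST was 37.2 ± 18.5 CPM, and its libraries overlapped those of OPC, ODC and MG. VLM and CR clusters gave 1106 ± 380 and 735 ± 337 CPM of Grin2a with wide spread, and VLM also carried 192 ± 64.0 CPM of Slc17a7 and 1810 ± 491 CPM of the neuronal gene Syt1 (2997 ± 177 CPM in EXC). CR are themselves neurons, and the part of RNA from other cells in those values, and in glial Grin2b, was not tested.

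Grin3b, the GluN3B gene, was near the limit of detection. Of its 36 UMIs, 10 lay in DG-i (3, 1, 4 and 2), the one neuron subtype with a UMI in all 4 libraries, whereas DG-M, with a larger total depth, held 1. Levels were 3.42 ± 1.14 CPM in DG-i and 0.0625 ± 0.125 CPM in DG-M. The difference is one of 10 and 1 UMIs and was not tested.

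Genes whose profile over 16 cell types was closest to each member were named by the highest Pearson correlation of log2(mean CPM + 1), a description over types that share the same 4 libraries, with 14111 genes compared. For Grin1 these were Sptbn4 (r = 0.98), Phf24 (0.98) and Mtus2 (0.97), and for Grin2a Sidt1 (0.97), Camk2a (0.96) and Rasgef1a (0.96). Camk2a, a kinase that binds GluN2B, was one of the EXC markers. For Grin2b the first 2 were Gm14330 (0.97) and Gm14329 (0.97), ahead of Gm42609 (0.96), and both lie inside Grin2b on the other strand, and the use of strand in counting is not given in the sources used here. Grin3a was closest to Ptprt (0.91), Gabrg1 (0.88) and Ntm (0.88). Transcripts without a gene name led for Grin2c (Gm49303, Gm37885 and C030018K13Rik, r = 0.95 each) and Grin2d (Gm2516 at 0.93, AI504432 at 0.92 and C130073E24Rik at 0.91). Among members, Grin1 and Grin2b (0.94) and Grin1 and Grin2a (0.91) were most alike.

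Genes that work with the receptor were taken from a list of 61, namely 13 scaffold genes, 19 kinase and phosphatase genes, 12 genes of co-agonist supply and removal and 17 of trafficking and anchoring. Between DG-i and DG-M, 24 of the 54 tested were lower in DG-i by the 1.5-fold rule and 6 were higher, against 17.8% and 18.1% of all genes, and their median was -0.28 beside 0.01 over all genes. Scaffold genes of the postsynaptic density were lower in 9 of 13 cases and never higher, among them Dlg4 (PSD-95) at -1.03 ± 0.29, Dlgap2 at -2.79 ± 0.07 and Dlgap3 at -2.08 ± 0.93. Kinase and phosphatase genes were lower in 6 of 18, with Camk2a at -2.80 ± 0.25. Trafficking genes split, 9 lower and 4 higher of 17. The lower ones included the auxiliary protein gene Neto1 (-3.46 ± 0.62), the actin linker gene Actn2 (-2.51 ± 0.59) and the vesicle fusion gene Nsf (-1.85 ± 0.09), and the reelin receptor gene Lrp8 was higher (+1.56 ± 0.11). In levels, Neto1 averaged 27.8 CPM in DG-i and 250 CPM in DG-M, Camk2a 139 and 837 CPM, and Dlgap2 310 and 1842 CPM. Of 6 co-agonist genes tested, 2 were higher, the transporter gene Slc1a4 (+0.90 ± 0.50) and the glycine-forming enzyme gene Shmt1 (+1.599 ± 0.89), and the serine racemase gene Srr differed by -0.14 ± 0.22. Both higher genes rested on few UMIs. In DG-i Slc1a4 had 15.7, 19.1, 11.6 and 18.8 CPM. Shmt1 had 10.1, 7.64, 18.6 and 5.65 CPM there, where 3 UMIs equal 5.65 CPM in HF2. Between CA1 and DG-M 9 of 56 partner genes were lower and 13 higher, and between INH and EXC 16 were lower and 8 higher. Over all genes 13.3% were lower and 15.1% higher in the first comparison, and 15.1% and 13.3% in the second.

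Chromatin gave a second readout of the same nuclei, one that had no part in naming the clusters. Peaks were merged over libraries, and 113 regions that overlapped a subunit gene or lay within 5000 bases of it had a peak in all 4 libraries (41 at Grin2a, 41 at Grin2b, 9 at Grin3a, 8 at Grin1, 8 at Grin2d, 3 at Grin2c and 3 at Grin3b). Insertions were summed per library and cell type and tested with edgeR, library as a block. Between DG-i and DG-M, 32 of the 38 Grin2a regions tested were less open in DG-i and none was more open (median -2.19 on the log2 scale), where 31.1% of 103267 regions were called lower and 24.0% higher. The Grin2b regions were also lower more often than higher, 16 and 3 of 34, although its RNA was level. A region could pass the count filter through 1 of the 2 types alone. In the diet tests within DG-i, 14 Grin2a and 13 Grin2b regions passed it, beside 60372 of all regions. Most regions tested at these 2 genes were thus readable in DG-M alone, which favoured a lower call. Of 8 Grin1 regions 1 was less and 2 were more open in DG-i (median -0.09), although its RNA was lower there, and 1 was more open without MF1 or HF2 or with DESeq2. All 3 Grin3b regions were more open in DG-i (median +1.36), and of 6 Grin2d regions 3 were more and 2 less open. The Grin3b count was 1 without HF1 and 2 without MF1, without MF2 or with DESeq2, and 1 Grin2d region was less open without HF1 or MF2. The start of Grin2a (chr16:9995117-9995980) fell from 24.8 ± 4.55 insertions-per-million in DG-M to 12.8 ± 3.70 in DG-i (log2 -0.85 ± 0.18 SE, edgeR adjusted p = 2.74e-04). The start of Grin2b (chr6:136173081-136174028) had 32.0 ± 2.29 and 35.3 ± 3.15 (log2 +0.25 ± 0.11, adjusted p = 0.0625), while a neighbouring start region 1225 bases into Grin2b was higher in DG-i (+0.61 ± 0.14, adjusted p = 5.99e-04). Start regions were chosen after the values were seen.

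**Figure D4:**
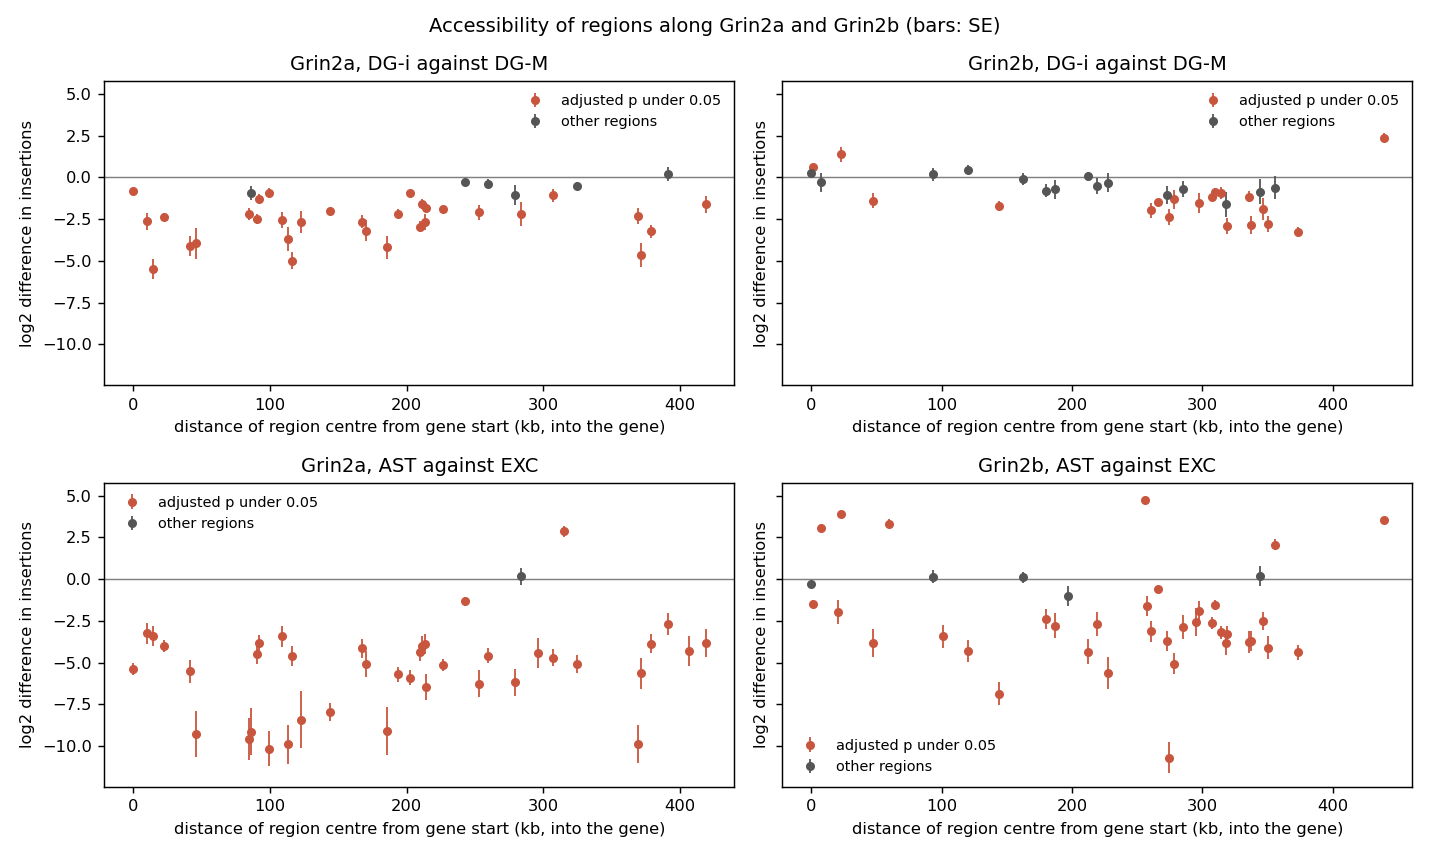
Log2 difference in insertions (± SE) of each tested region against the distance of its centre from the gene start (kb), for Grin2a (left) and Grin2b (right), in DG-i against DG-M (top) and AST against EXC (bottom). Red marks an edgeR adjusted p under 0.05. For Grin2a 32 of 38 regions (DG-i) and 39 of 41 (AST) are called lower and 1 is called higher in AST, whereas Grin2b has 6 regions more open in AST among 30 that are less open.

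The regions with the smallest adjusted p in DG-i against DG-M lay in Grin2d and Grin2b. A region over a coding exon and UTR of Grin2d (chr7:45865771-45866668) had 35.5, 24.8, 38.5 and 35.6 insertions-per-million in DG-i and 7.75, 10.2, 10.5 and 6.97 in DG-M (log2 +2.04 ± 0.17, adjusted p = 4.43e-11). Its edge lies a few bases from the RefSeq start of Grin2d at chr7:45866681. It was also more open in INH than in EXC (+1.38 ± 0.13, adjusted p = 2.16e-09), as was the annotated start region at chr7:45870064-45871086 (+1.76 ± 0.22, adjusted p = 1.18e-07). The latter was more open in DG-i than in DG-M as well (+1.31 ± 0.30, adjusted p = 0.00051). An intronic Grin2b region (chr6:135799564-135800493) went the other way, with 1.11, 2.52, 1.14 and 3.56 in DG-i and 21.7, 22.01, 22.005 and 17.1 in DG-M (-3.28 ± 0.30).

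Between CA1 and DG-M, 5 of 8 Grin3a regions were more open in CA1 and none less open (median +1.85), where 31.8% of 137907 regions were called higher. In the diet tests 8 Grin3a regions passed the count filter within CA1 and 4 within DG-M, beside 130495 and 121438 of all regions. Some Grin3a regions were thus readable in CA1 alone, which favoured a higher call. An intronic region 10945 bases into Grin3a (chr4:49834316-49835282) had 7.16, 7.05, 6.10 and 7.37 insertions-per-million in CA1 and 0.112, 0, 0 and 0.199 in DG-M, and another 104311 bases in (chr4:49740999-49741867) had 7.56 ± 1.48 and 0.202 ± 0.218. With 3 and 8 insertions in DG-M, the sizes of these differences are loosely bounded. The Grin3a start region did not pass the test (+0.32 ± 0.17, adjusted p = 0.101). For Grin2a, 14 regions were lower and 11 higher of 41, near the shares over all regions (31.0% lower and 31.8% higher).

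Between INH and EXC, 23 of 41 Grin2a regions were less open in INH and 3 more open, against 31.1% lower and 19.6% higher over 151516 regions. In the diet test within INH, 14 Grin2a regions passed the count filter, beside 63298 of all regions. Most of the 41 were thus readable in EXC alone, which favoured a lower call. The intronic regions at chr16:9792744-9793673 and chr16:9851272-9852162 differed by -3.30 ± 0.29 and -2.99 ± 0.27, while the Grin2a start did not pass the test (-0.10 ± 0.14, adjusted p = 0.587). For Grin3a, 4 of 9 regions were more open in INH and 1 less, the start among the former (+0.92 ± 0.20, adjusted p = 4.21e-04).

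Astrocytes were compared with EXC in the same way. All 3 Grin2c regions were more open in AST than in EXC, where 22.9% of 151557 regions were called higher and 54.5% lower. With DESeq2, with RLE normalization or without HF1, 2 of the 3 were called. The Grin2c start (chr11:115266701-115267555), whose upstream bases are printed above, had 31.7, 28.2, 31.7 and 29.4 insertions-per-million in AST and 2.43, 1.77, 2.12 and 2.01 in EXC (log2 +4.27 ± 0.21). For Grin2a 39 of 41 regions were lower in AST and 1 higher, and the start fell to 0.549 ± 0.454 from 24.7 ± 1.86 (-5.38 ± 0.36). Grin2b kept an open start, with 18.7 ± 5.57 in AST and 29.2 ± 2.00 in EXC (-0.27 ± 0.17, adjusted p = 0.124), although 30 of its 41 regions were lower. In the diet tests within AST, 2 Grin2a and 12 Grin2b regions passed the count filter, beside 57124 of all regions. Most of the 41 at each gene were thus readable in EXC alone, which favoured a lower call. Grin2b also had 6 regions more open in AST, led by an intronic one 255665 bases from the start (chr6:135917367-135918326) with 36.1, 42.9, 31.7 and 35.1 in AST and 2.10, 1.36, 2.03 and 1.70 in EXC (+4.74 ± 0.20). Grin3a had a like one in its last part (chr4:49666504-49667451), with 42.9 ± 9.78 in AST and 0.831 ± 0.268 in EXC (+6.08 ± 0.21), and its start was more open too (+1.53 ± 0.20).

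The central 200 bases of those last 2 regions, and of the Grin2a region at chr16:9851272-9852162 that had 1 insertion in AST over all libraries (-7.97 ± 0.55), are shown to set the AST regions beside a region open in EXC. They are read from RefSeq GRCm38.p6 on the plus strand, with the letters TGCCAA or their complement TTGGCA, the core of the nuclear factor I site, in capitals. Each of the 3 holds 1 copy, the Grin2a region included, and 19.1% of 154760 region centres hold at least 1. Of the other 5 regions named, none holds it. The letters CAGATG (28.1% of region centres), TGACGTCA (0.476%) and GGGCGG (10.5%) were searched on both strands too, and none of them occurs in these 3. The Grin2a region was less open in INH than in EXC (above), so neurons in its label below means mainly EXC.
Grin3a region open in AST (chr4:49666878-49667077): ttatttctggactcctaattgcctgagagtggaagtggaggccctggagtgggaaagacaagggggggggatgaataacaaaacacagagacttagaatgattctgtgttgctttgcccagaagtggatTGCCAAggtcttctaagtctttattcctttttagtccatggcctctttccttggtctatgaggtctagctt
Grin2b region open in AST (chr6:135917747-135917946): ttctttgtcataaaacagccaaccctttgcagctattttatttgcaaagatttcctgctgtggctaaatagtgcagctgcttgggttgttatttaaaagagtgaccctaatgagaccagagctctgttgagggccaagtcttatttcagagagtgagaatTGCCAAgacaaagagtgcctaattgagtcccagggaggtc
Grin2a region open in neurons (chr16:9851618-9851817): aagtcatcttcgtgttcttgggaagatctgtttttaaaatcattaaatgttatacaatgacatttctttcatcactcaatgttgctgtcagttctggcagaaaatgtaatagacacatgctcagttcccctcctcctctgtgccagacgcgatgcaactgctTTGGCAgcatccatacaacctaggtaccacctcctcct

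Maternal FA diet was compared on UMI sums per library, gene by gene over the whole table. Over 17 cell types and groupings, 78 member tests were made and 1 was called at an adjusted p under 0.05 and at least 1.2-fold (edgeR quasi-likelihood test), Grin2a in microglia, where 1.3% of all genes were called. Another 2 member tests had an unadjusted p under 0.05. Grin3b passed the count filter in no type. With DESeq2 no member was called. In EXC, CA1, CA3, DG-M, DG-i and INH edgeR called no gene (0.0% of the 8895 to 16205 tested, with 171 to 252 at an unadjusted p under 0.05), as in every other type but DG-T (0.0473%), OPC (0.055%) and MG. DESeq2 called 1 gene in CA1, 3 in COP, 20 in MG and 0 elsewhere. The libraries of the diets did not overlap for 13 of the 78 member tests, spread over CA1, DG-M, DG-T, DG-i, the interneurons and the glia, where the share over all genes was 23.6% in CA1, 23.2% in DG-M, 27.6% in DG-T, 26.6% in DG-i, 27.3% in INH, 29.8% in Sst neurons, 28.5% in Lhx6 neurons, 27.3% in AST and OPC, 27.4% in COP and 28.4% in MG. No member was among them in EXC (20.4% of all genes), CA3 (26.7%), EXC-Nxph3 (25.5%), Adarb2 neurons (29.4%) or ODC (25.6%). Simulated 2-fold changes were recovered in 69% of cases in EXC, 32% in DG-i and 29% in OPC, and 4-fold changes in 98, 96 and 96%. At this depth and replication a moderate change in a small cell type would often have been missed.

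**Figure D5:**
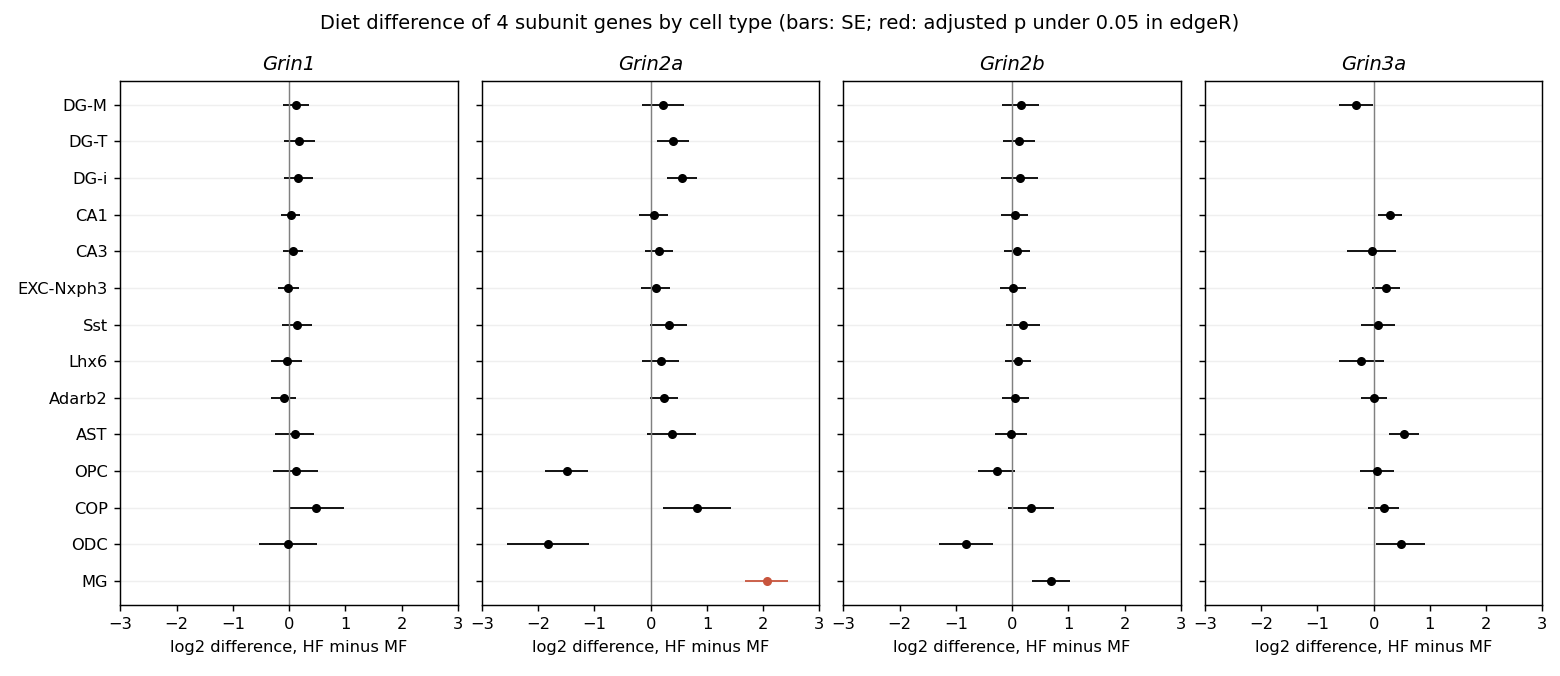
Diet difference (log2, HF minus MF, ± SE from edgeR) of Grin1, Grin2a, Grin2b and Grin3a in 14 cell types, with tests that passed an adjusted p of 0.05 in red. All values in excitatory and inhibitory neurons lie within 0.6 of 0, and Grin2a in MG is the single value that passed.

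In neurons the diet values of Grin1 and Grin2b were close to 0. In EXC they were +0.07 ± 0.18 for Grin1, +0.13 ± 0.31 for Grin2a and +0.07 ± 0.28 for Grin2b (log2, HF minus MF, ± SE), each with an edgeR adjusted p of 0.99998. Leaving out MF1 or HF2 turned Grin2a to -0.06 or -0.14. The largest neuronal value of Grin2a was that in DG-i, at 241 and 279 CPM in MF1 and MF2 and 366 and 375 CPM in HF1 and HF2. The diets did not overlap there, as in 26.6% of all genes in DG-i. The difference of +0.55 ± 0.27 had an unadjusted edgeR p of 0.0504 and an adjusted p of 0.9998. The Grin2a share in DG-i was 3.61 percentage points higher in HF (13.1 and 16.7%), with an exact two-sided permutation p of 0.333, the smallest that 2 libraries against 2 allow, and an adjusted p of 1 over 19 cell types and groupings. It was 1.39 points at the higher clustering resolution and 2.03 with the Grin genes among the variable genes. DG-M overlapped between diets for Grin2a, and a test of whether the diet difference changed between the stages gave +0.32 ± 0.15 for Grin2a (edgeR adjusted p = 0.999), with 0 of 5 members called, 1 at an unadjusted p under 0.05, and 0.00878% of 11395 genes called. DESeq2 called 0 there.

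The single call was Grin2a in MG, at 28.4, 27.8, 125 and 112 CPM (log2 +2.06 ± 0.38, edgeR adjusted p = 0.00282), from 16, 5, 39 and 29 UMIs. In MG 75 of 5791 genes were called, 71 of them higher in HF, and these included the neuronal scaffold genes Dlg2 (+2.85 ± 0.33), Dlgap1 (+2.52 ± 0.34) and Dlgap2 (+1.98 ± 0.49), the only receptor partner genes called in any cell type. The summed level of the 36 EXC markers in MG was 1772 and 1931 CPM in MF and 2095 and 2103 CPM in HF. Of these markers, 3 were at 0. That of the 16 INH markers was 280 and 189 CPM in MF and 349 and 467 CPM in HF. Single neuronal markers went both ways. Rbfox3 was higher in both HF libraries (37.3, 38.96, 63.98 and 54.02 CPM). The defining marker Slc17a7 (44.4, 38.96, 32.0 and 15.4 CPM) and Gad1 (58.5, 44.5, 31.99 and 7.72 CPM) were lower in both. The diets overlapped for Neurod2, Gad2, Snap25 and Syt1. They did not overlap for 28.4% of all genes in MG. When nuclei over the doublet score of 0.05 were left out, Grin2a in MG was 27.2, 27.8, 17.3 and 20.7 CPM and no member was called. This took MG from 262, 111, 180 and 157 nuclei to 260, 111, 177 and 154, and left 15, 5, 5 and 5 Grin2a UMIs. Most Grin2a UMIs of MG in HF thus lay in few nuclei. The call was also lost without MF1, at a higher clustering resolution and with the Grin genes among the variable genes. The part of neuronal RNA in it was not tested.

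OPC gave the lowest unadjusted p after MG. Grin2a there was 111 and 59.4 CPM in MF and 21.98 and 39.8 CPM in HF (log2 -1.49 ± 0.38, edgeR adjusted p = 0.819) on 60, 23, 11 and 16 UMIs. The diets did not overlap for 3 of 7 neuronal markers read there, beside 27.3% of all genes in OPC. Syt1 (275, 245, 140 and 139 CPM) and Rbfox3 (46.5, 41.3, 31.97 and 24.9 CPM) were lower in HF and Gad2 (11.1, 12.9, 17.98 and 32.4 CPM) higher, while the summed level of the 36 EXC markers was 2847 and 3012 CPM in MF and 2828 and 2947 CPM in HF, with 2 of them at 0. Without nuclei over the doublet score Grin2a was 31.8, 23.8, 22.2 and 39.8 CPM, and the difference turned to +0.13. Without MF2 or HF2 it passed the test, at -1.81 and -2.03. Grin3a in OPC, the member with the most UMIs there, differed by +0.06 ± 0.30 (edgeR adjusted p = 0.9999), and Grin2c in AST by -0.16 ± 0.28 (edgeR adjusted p = 0.99997). Grin3a in AST was 144 and 138 CPM in MF and 221 and 178 CPM in HF (+0.54 ± 0.26), with an unadjusted edgeR p of 0.0569 and an adjusted p of 0.99997.

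Grin2a in ODC differed by -1.83 ± 0.73 (edgeR, unadjusted p = 0.0353, adjusted p = 0.9998), and MF2 had 112 CPM where the other libraries had 12.1 to 22.6. Without nuclei over the doublet score the ODC levels were 19.0, 20.8, 22.2 and 11.6 CPM. With all nuclei, 6 of the 7 neuronal markers were highest in the same library, with Syt1 at 313 CPM in MF2 and 61.6 to 91.2 CPM elsewhere and Snap25 at 208 and 93.4 to 194 CPM. The summed level of the EXC markers was 4516 CPM in MF2 and 3338 to 5011 CPM elsewhere, with 1 of them at 0. This list is not specific to neurons, since its member Man1a averaged 1726 CPM in ODC and 596 CPM in CA1. The sum thus cannot show the part of neuronal RNA in ODC. In COP, MF2 stood apart on the low side for Grin2a, with 32.4 CPM beside 249, 160 and 331 CPM, and without nuclei over the doublet score the levels were 87.5, 7.02, 18.6 and 15.1 CPM. With all nuclei, MF2 was also lowest in COP for Syt1 (335, 111, 226 and 402 CPM) and Rbfox3 (86.4, 10.8, 53.7 and 68.7 CPM). It was lowest too for Slc17a7, Neurod2 and Snap25, but not for Gad1 or Gad2. The COP difference was +2.89 without MF1 and +1.33 without HF1, and it was then called, as was that in ODC without MF1 (-2.66, with Grin2b in ODC at -1.45).

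Chromatin at the subunit genes gave no diet call. Over 8 cell types and groupings, 592 tests of regions at the 7 genes gave 0 calls at an adjusted p under 0.05 with edgeR and 19 with an unadjusted p under 0.05, and DESeq2 also gave 0 calls. Among all regions tested, 0.00783% of 153330 regions were called in EXC, 0.00175% in AST, 0.000823% in DG-M and 0.0% in DG-i, CA1, CA3, INH and OPC. Simulated 2-fold changes of regions were recovered in 22% of cases in EXC and 4-fold changes in 96%, so changes of 2-fold would mostly have been missed.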

How the data were processed

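Nuclear RNA (GEX) and ATAC tables of 4 hippocampal libraries were used, 2 per diet. The deposited counts (UMIs per gene and insertions per peak, in 1 sparse matrix per library) come from the authors' Cell Ranger ARC run (version 2.0.1, mm10), which also called the peaks of each library. Pups and litters per library are not given. A nucleus was kept if it had 500 to 7000 genes, 1000 to 70000 ATAC counts and a mitochondrial share under 2%. They were clustered with scanpy 1.11.5 without 139 genes (the 7 Grin genes and 132 mitochondrial, ribosomal protein, haemoglobin, sex-linked and ambient RNA genes), and named from marker lists. Scrublet's own threshold marked 0 to 636 nuclei per library and was not used. Clusters with a median doublet score over 0.05 (1437 nuclei) were set aside in the main analysis. As an alternative, all single nuclei with a score over 0.05 (14.3 to 16.3% per library) were left out as well. UMIs were summed per library and cell type and tested with edgeR 4.0.16 (TMM, quasi-likelihood, adjusted p under 0.05, at least 1.2-fold), with DESeq2 1.42.0 as an alternative. Peaks were merged over libraries, and regions with a peak in all 4 were tested alike. Differences between RNA clusters carry no test. The exact permutation test over 4 libraries cannot go below p = 0.333. Detection was compared after thinning to 1000 UMIs per nucleus. A level of 3 UMIs was taken as the floor. Total UMIs per library in kept nuclei were 20151562 to 29243072. The floor covers counting error only, and values after ± are SDs over libraries or edgeR SEs. The members, marker lists and partner lists were chosen with earlier results of these data known. Named were all members, the 6 partner genes with the largest DG-i against DG-M difference and those called between diets, the 3 genes most like each member, and for each cell type comparison the 2 Grin regions with the smallest adjusted p. Dlg4, Lrp8, Slc1a4, Shmt1, Srr and the start regions were added after their values were seen. Both tests were tested on simulated data with known changes.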

Additional observations from a re-analysis of the deposited data

Results flagged for a closer look

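Some diet differences of the same gene pointed opposite ways in different cell types while the libraries of the diets did not overlap in either type. Cell types that hold no other type were compared, for genes with at least 10 UMIs in every library. These differences between cell types were not tested, and within these limits none of the single values passed the edgeR test with all libraries. Grin3a was higher in both HF libraries in CA1 (log2 +0.29, HF minus MF), AST (+0.54) and COP (+0.18) and lower in both in DG-M (-0.32). In DG-M the level was 11.7 and 16.1 CPM in MF and 10.97 and 10.0 CPM in HF, and in COP 121 and 108 CPM in MF and 125 and 131 CPM in HF. Without nuclei over the doublet score, COP had 102.6 and 98.3 CPM in MF and 101.4 and 117 CPM in HF, so that the diets overlapped. Grin2a was higher in both HF libraries in DG-T (+0.40) and DG-i (+0.55) and lower in both in OPC (-1.49). In DG-T its level was 1632 and 1461 CPM in MF and 1840 and 2176 CPM in HF. Without nuclei over the doublet score, OPC had 31.8 and 23.8 CPM in MF and 22.2 and 39.8 CPM in HF, so that the diets overlapped and the difference turned to +0.13. With all nuclei, the neuronal markers Syt1 and Rbfox3 were also lower in both HF libraries of OPC, Gad2 was higher in both, and the diets overlapped for the other 4 markers read. Outside those limits, Grin2a was higher in both HF libraries in INH as a whole (+0.25) and in MG (+2.06), where MF2 had 5 UMIs and the value passed the test. With 2 libraries per diet, 18.3 to 29.8% of all genes had diets that did not overlap, depending on the cell type.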

How the results depend on the processing

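Of 213 alternative values over 22 results, 174 kept the direction and side of the threshold or stayed within the limits set. The 1 member call between diets became 0 with DESeq2, without nuclei over the doublet score, at a higher clustering resolution and with the Grin genes among the variable genes, 2 without a low-count filter, and 2 to 3 when 1 library was left out. Calls over all genes (82) became 24, 4, 6, 14 and 253 in the same order, and 150 to 293 with 1 library left out. The 3 partner calls became 0 without those nuclei and in both other clusterings, and reached 5 without MF1. With the replicate number as a block, all-gene calls were 177 and the member call stayed (Grin2a in MG +2.09, adjusted p = 0.0109). Same-numbered libraries deviated together only weakly (r = 0.20 over all nuclei, 0.28 in EXC, 0.24 in DG-M), and with 2 pairs the numbers mark no known pairing. Some differences turned, always short of the threshold. With 1 library left out, Grin2a ran from -0.14 (without HF2; -0.06 without MF1) to 0.35 in EXC and from -0.031 (without HF2) and -0.0094 (without MF1) to 0.50 in DG-M, Grin2b from -0.041 (without MF1) and -0.0032 (without HF2) to 0.35 in DG-i, Grin3a from -0.35 (without HF2) to 0.38 in OPC, and Grin2c from -0.37 to 0.092 (without MF2) in AST. Grin2a in OPC turned to 0.13 without nuclei over the doublet score. The DG-i share difference of 3.61 points was 1.39 at the higher resolution and 2.03 with the Grin genes included. Without TMM, DG-i minus DG-M was -0.92 for Grin1 and -0.01 for Grin2b. The causes were not tested. Calls at Grin regions stayed at 0 between diets. Depth limits Grin3b, Grin2d outside interneurons, and glial Grin2a, which rest on few UMIs.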

Other observations

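Grin2b holds genes on its opposite strand that were counted as well, with 1761 UMIs for Gm14330 and 931 for Gm14329, against 151725 for Grin2b itself. Gm14330 was highest in CA1 at 26.2 CPM and Gm14329 in DG-i at 17.2 CPM. Kdelr1 (2890 UMIs) overlaps Grin2d and Tmem259 (2696 UMIs) overlaps Grin3b on the other strand, and both overlapping genes had more UMIs than the member. In the Cajal-Retzius cluster, Grin1 was 222 ± 46.6 CPM and Grin2b 724 ± 234 CPM, where the excitatory marker Slc17a7 stood at 108 ± 29.5 CPM.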
